A study of Mus musculus with 40 samples.

Results

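The matrix metalloproteinases (MMPs), the secreted ADAMTS metalloproteinases and the tissue inhibitors of metalloproteinases (TIMPs) were examined in the retina and the choroid of mice with laser-induced choroidal neovascularization (CNV), in which a laser burn through Bruch's membrane makes choroidal vessels grow towards the retina. The members were chosen by gene symbol: protein-coding genes whose symbol was Mmp, Adamts or Timp followed by a number were taken. This gave 45 of the 54307 genes in the deposited table, namely 22 MMPs, 19 ADAMTS genes and 4 TIMPs.

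The table held 40 libraries, in 4 groups of 5 mice per tissue. By the numbers in the library names, they were the retina and the choroid of the same 20 mice. All mice carried the floxed alleles Tgfbr2 fl/fl, received tamoxifen eye drops for 5 days from an age of 6 to 7 weeks and 6 laser spots per eye, and gave tissue at day 3 after the laser. Tgfbr2ΔEC mice also carried Cdh5-CreERT2, in which the Cdh5 promoter drives a tamoxifen-activated Cre in endothelial cells, and controls were littermates without Cre. In each genotype, 5 mice ate a normal diet (- PLX) and 5 ate a diet with PLX5622 (+ PLX), an inhibitor of the CSF1 receptor that depletes microglia and other mononuclear phagocytes. The choroid samples were the central part with the lesions, and animals of both sexes were used. Whole tissue was sequenced. In the choroid Tgfbr2 was at 10503 ± 425 normalized counts (SD, n = 5) in controls and 10176 ± 1077 in Tgfbr2ΔEC mice without PLX. In these libraries the level of Tgfbr2 in endothelial cells was not measured separately. The study reported loss of the receptor in the endothelium of choroid and retina, and checked the deletion by PCR and qPCR of choroidal tissue.

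MMPs are zinc enzymes that cleave collagens, gelatin, elastin, proteoglycans and many signaling proteins, and are made as inactive precursors. ADAMTS enzymes act on more restricted substrates, such as aggrecan and versican, the propeptides of fibrillar collagens, and fibrillin microfibrils. TIMPs bind the active site of these enzymes, and TIMP3 in particular is deposited in Bruch's membrane, where mutations of the human gene cause Sorsby fundus dystrophy.

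The tissue labels matched the markers of each tissue. All 10 neural retina markers were lower in choroid (median log2 difference -6.14), while all 8 markers of the retinal pigment epithelium (RPE), all 6 of melanocytes and all 10 of fibroblasts and sclera were higher, with medians of 5.62, 9.08 and 10.15. The choroid also held skeletal muscle markers (8 of 8 higher, median 10.6). Mueller glia markers were closer between tissues, with a mean log2 level of 12.07 ± 0.21 in choroid and 12.85 ± 0.10 in retina (SD, n = 20 each). Libraries held about 20996394 to 30360452 reads, as estimated from the smallest steps between the values of rare genes. In these whole tissues, fewer cells of a type and less RNA per cell cannot be told apart.

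At the level of transcripts per length, inhibitors led in both tissues. In the choroid, Timp3 had the highest level of all members, at 23611 ± 4509 normalized counts per kb of transcript (SD, n = 20), followed by Timp2 at 9264 ± 895, Mmp3 (stromelysin 1, which cleaves proteoglycans and activates other MMPs) at 8346 ± 2118, Mmp2 (gelatinase A) at 4137 ± 929, Mmp14 (the membrane-type activator of MMP2) at 3840 ± 452 and Timp1 at 2146 ± 497. Timp3 lay above Timp2 in all 20 choroids without overlap, whereas Timp2 lay above Mmp3 in 15 of 20 and Mmp2 above Mmp14 in 12 of 20. The leading ADAMTS genes were Adamts10, a microfibril-associated member, at 864 ± 118 and Adamts1, a proteoglycanase, at 540 ± 101 per kb. Mmp3, Mmp2 and Mmp14 together made up most of the MMP level in the choroid (45.7%, 22.7% and 21.1% of the sum per kb), and Timp3 and Timp2 made up 67.4% and 26.4% of the TIMP sum.

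In the retina the order differed. Timp2 (607 ± 43.9 per kb) and Timp3 (541 ± 93.8) came first and overlapped, with Timp2 higher in 15 of 20 retinas. The next members were Mmp9 (gelatinase B) at 167 ± 31.4, Mmp14 at 161 ± 28.1, Mmp24 (a membrane-type MMP of neurons) at 154 ± 27.1, Adamts1 at 154 ± 32.4, Adamts10 at 141 ± 27.1 and Adamts3 at 137 ± 43.0. Each of these overlapped its neighbor in the order. The summed level per kb of all TIMPs was 35041 ± 4852 in choroid against 1200 ± 93.6 in retina, that of the MMPs 18246 ± 3106 against 761 ± 78.8, and that of the ADAMTS genes 2943 ± 234 against 615 ± 77.3.

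**Figure D1:**
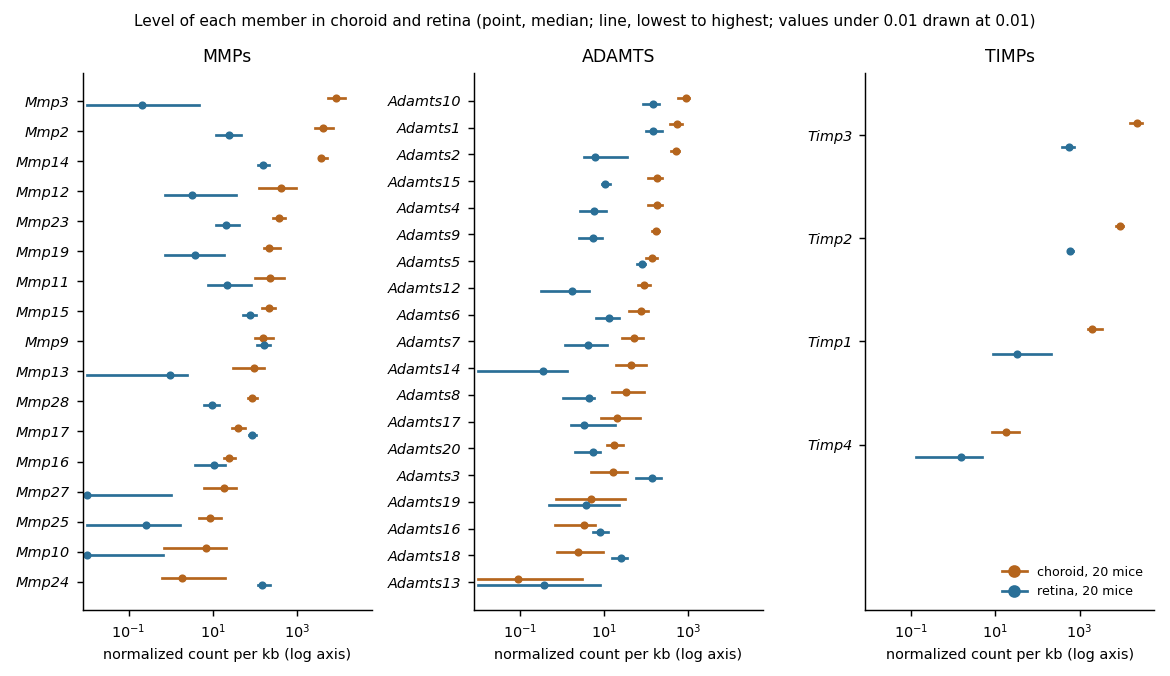
Level of each member that averaged 1 normalized count or more in a tissue, as normalized counts per kb on a log axis. Points are medians and lines run from the lowest to the highest of 20 mice in choroid (brown) and retina (blue). Most members lie far to the right in choroid, whereas Mmp24, Adamts3, Adamts18, Adamts16 and Mmp17 lie to the right in retina, and Mmp9 coincides.

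The comparison of choroid with retina asked where each member is transcribed. Over the 4 groups, 37 of the 40 members that reached a mean of 1 normalized count differed between tissues (limma with Benjamini-Hochberg adjustment over 24317 genes, adjusted p at or under 0.05), 32 higher in choroid and 5 higher in retina. Among the 32 were Mmp10 and Mmp27, which reached that mean through the choroid alone (0.0982 and 0.252 in retina), so that their direction was fixed by the filter. Of all genes tested 82% were called, 40.8% higher and 41.1% lower in choroid, so a call as such was common. The median log2 difference was 3.43 over the tested members, which include Mmp10 and Mmp27, and -0.01 over all genes. In controls without PLX alone 36 members were called, Mmp10 and Mmp27 again among them, with 66.8% of all genes. The values of 34 members did not overlap between the 20 choroids and the 20 retinas, compared with 33.6% of all genes, and the 34 include Mmp10 and Mmp27.

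Timp1, which inhibits most secreted MMPs and is induced by injury, ranged from 1477 to 3123 normalized counts (median 1892) in choroid and from 8.24 to 194 (median 31.3) in retina. Timp3 ranged from 76143 to 144391 (median 108690) against 1795 to 3443 (median 2597), and Timp2 from 27594 to 40892 (median 34067) against 2004 to 2555 (median 2219). Timp4, the least transcribed inhibitor, ranged from 45.7 to 207 (median 101) against 0.735 to 26.3 (median 8.47). No TIMP overlapped between tissues, and the log2 differences were 5.86 ± 0.24 (SE) for Timp1, 5.44 ± 0.07 for Timp3, 3.93 ± 0.04 for Timp2 and 3.42 ± 0.28 for Timp4.

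Among the MMPs, Mmp3 was the most extreme. It ranged from 9702 to 25208 normalized counts (median 15374) in choroid and from 0 to 8.49 (median 0.378) in retina, where 16 of 20 libraries were at or under the value of 3 reads, and the log2 difference was 12.94 ± 0.25. With so few retinal reads this size depends on the pseudocount, and was 11.19 with a pseudocount of 5 and 13.58 with 0.5. Mmp2 ranged from 8283 to 21560 (median 12473) in choroid and from 37.04 to 148 (median 74.5) in retina, a log2 difference of 7.38 ± 0.14. The macrophage metalloelastase Mmp12 ranged from 449 to 3336 (median 1476) against 2.63 to 129 (median 11.7), with a log2 difference of 6.36 ± 0.24. The collagenase Mmp13 (81.1 to 438 against 0 to 6.64) and Mmp19, a basement membrane protease (562 to 1384 against 2.46 to 64.8), differed by 6.10 ± 0.26 and 5.95 ± 0.28. All of these were higher in the choroid of every mouse. Mmp13 was at or under the value of 3 reads in 10 of 20 retinas, which leaves the size of its difference uncertain.

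Among the ADAMTS genes the procollagen N-proteinases split by tissue. Adamts2 (2900 to 4452 in choroid, 24.6 to 258 in retina) and Adamts14 (99.97 to 506 against 0 to 6.77) were higher in choroid by 6.27 ± 0.15 and 6.22 ± 0.27 on the log2 scale. Adamts14 was at or under the value of 3 reads in 14 of 20 retinas, so the size of its difference is uncertain. Adamts3, the enzyme of the same class that also processes VEGF-C, was higher in retina (404 to 1563) than in choroid (35.1 to 246), with a log2 difference of -3.07 ± 0.17. The COMP-cleaving Adamts12 was higher in choroid (536 to 1082 against 2.77 to 37.7, log2 difference 5.80 ± 0.20). All 7 hyalectanases, which cleave aggrecan and versican, were higher in choroid, with a median log2 difference of 3.14. Most tested members were higher there too, as were 40.8% of all genes, so this direction is not particular to the hyalectanases.

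The other members higher in retina were Mmp24, Adamts18, Adamts16 and Mmp17. Mmp24 ranged from 528 to 1041 normalized counts in retina and from 2.86 to 86.4 in choroid (log2 difference -5.85 ± 0.25). Adamts18 ranged from 87.1 to 199 against 4.24 to 52.0 (-3.18 ± 0.21) and Mmp17, a membrane-anchored MMP, from 454 to 673 against 186 to 379 (-1.10 ± 0.07). Adamts16 ranged from 26.5 to 62.7 against 3.42 to 30.8 (-1.43 ± 0.18), so its tissues overlapped.

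Mmp9, Adamts13 and Adamts19 were not called between tissues. Mmp9 was at 540 ± 168 normalized counts in choroid and 529 ± 99.6 in retina (log2 difference -0.01 ± 0.10, 95% interval -0.22 to 0.20, adjusted p = 0.916 by limma). It was thus close in level where the other gelatinase, Mmp2, was 160 times higher in choroid by the ratio of means. Adamts13 was at or under the value of 3 reads in 17 of 20 choroids and 11 of 20 retinas. It was called with mouse as a block, by the pairing in the library names, or without mouse 2, 4 or 9.

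Members under a mean of 1 normalized count over the 40 libraries were not tested. Mmp20, the enamel protease, was listed at 0 in every library. The collagenases Mmp1a and Mmp1b reached at most 1.01 and 2.70, the matrilysin Mmp7 2.16 and Mmp21 2.77. In every choroid these were under the value of 3 reads, as in every retina except 1 for Mmp21. In the retina Mmp10 (at most 1.11) and Mmp27 (at most 2.15) were also at or under 3 reads in all 20 libraries, so no fold between tissues is given for them.

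The diet comparison asked which members change when mononuclear phagocytes are depleted. In the choroid, over both genotypes, 6 of 40 tested members were called, 5 lower and 1 higher with PLX. Lower were Mmp12, Mmp27, Mmp10, Timp1 and Mmp9, and higher was Adamts20. Of all 23619 genes tested 7.13% were called, 5.06% lower and 2.07% higher, and the median log2 difference was 0.07 over the members and 0.00 over all genes. The abundant matrix proteases of the choroid were not among the members called: the log2 difference was 0.13 (95% interval -0.17 to 0.44) for Mmp3, 0.08 (-0.20 to 0.35) for Mmp2 and 0.12 (-0.03 to 0.27) for Mmp14.

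**Figure D2:**
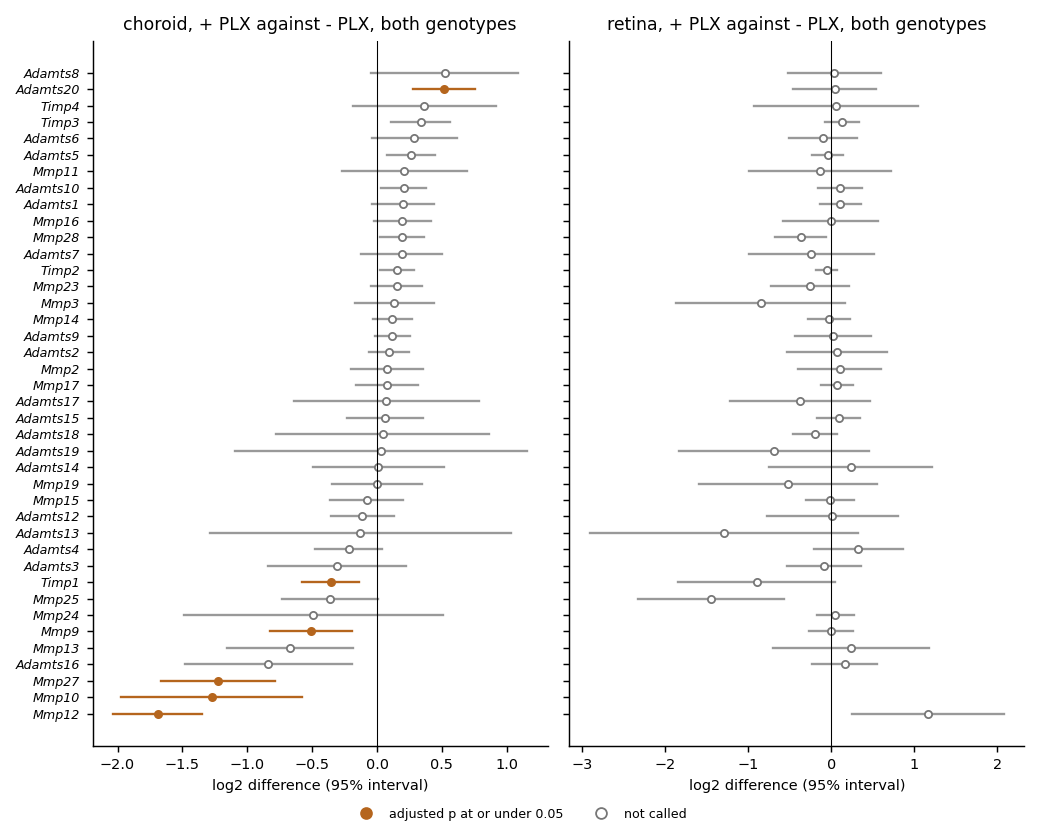
Log2 difference of each member between mice with and without PLX over both genotypes, with its 95% interval, in choroid (left, 40 members) and retina (right, 38 members). Filled points are called by limma at an adjusted p of 0.05. Filled points appear in the choroid panel for Mmp12, Mmp10, Mmp27, Mmp9, Timp1 and Adamts20, and none appears in the retina panel.

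Mmp12 was at 2064, 1910, 1657, 2211 and 2069 normalized counts in the 5 control choroids without PLX and at 1704, 3336, 2369, 1825 and 1690 in those of Tgfbr2ΔEC mice. In mice with PLX the values were 955, 1295, 525, 616 and 449 in controls and 596, 682, 546, 544 and 461 in Tgfbr2ΔEC mice. Every choroid without PLX lay above every choroid with PLX. The log2 difference was -1.69 ± 0.16 (SE), with an adjusted p of 2.14e-07 by limma, and the exact permutation test that relabelled diets within genotypes gave p = 3.15e-05, the smallest it can give.

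Mmp27, a little studied member of the family, was low but also separated by diet. It was at 76.1, 41.9, 47.6, 49.9 and 69.3 normalized counts in controls without PLX and at 40.4, 51.9, 40.3, 66.0 and 73.4 in Tgfbr2ΔEC mice without PLX. On the PLX diet it was at 26.9, 18.2, 39.6, 12.9 and 14.4 in controls and at 18.9, 30.1, 21.5, 25.4 and 29.97 in Tgfbr2ΔEC mice. The lowest choroid without PLX (40.3) was just above the highest with PLX (39.6), and the log2 difference was -1.23 ± 0.21 (adjusted p = 0.000488 by limma, exact permutation p = 3.15e-05). Mmp12 and Mmp27 were the 2 members whose 10 choroids without PLX did not overlap the 10 with PLX, compared with 1.8% of all genes.

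Mmp10 (stromelysin 2) was at 35.9, 26.2, 14.0, 15.4 and 14.4 normalized counts in controls without PLX and at 6.005, 4.29, 5.01, 1.18 and 6.52 in controls with PLX, without overlap. In Tgfbr2ΔEC choroids it was at 34.4, 8.19, 18.8, 14.9 and 8.15 without PLX and at 9.96, 6.84, 16.9, 4.07 and 17.2 with PLX, which overlapped. Over both genotypes the log2 difference was -1.27 ± 0.33 (adjusted p = 0.0208 by limma, exact permutation p = 0.0028). These are low levels, and 1 of the 20 choroids was under the value of 3 reads. With the neural retina score as covariate the log2 difference was -1.24, and the adjusted p of 0.06 was over the threshold.

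Timp1 was the only TIMP called. It was at 2073, 2998, 2186, 2096 and 3123 normalized counts in controls and at 2311, 1604, 2570, 2049 and 1714 in Tgfbr2ΔEC mice without PLX. In the PLX groups it was at 1595, 2316, 1911, 1567 and 1569 in controls and at 1874, 1706, 1732, 1477 and 1746 in Tgfbr2ΔEC mice, so the diets overlapped. The log2 difference was -0.36 ± 0.10 (adjusted p = 0.0398 by limma, exact permutation p = 0.00523). The call was lost in 16 of 29 alternatives, 12 of which each left out 1 mouse (mice 2, 5, 6, 8, 9, 11, 14, 15, 17, 18, 19 or 20), with log2 differences of -0.41 to -0.31 over all alternatives and adjusted p values of 0.0119 to 0.0839.

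Mmp9 was at 488, 627, 661, 628 and 348 normalized counts in controls and at 771, 657, 848, 790 and 524.02 in Tgfbr2ΔEC choroids without PLX. In choroids with PLX it was at 748, 399, 311, 406 and 469 in controls and at 402, 375, 330, 450 and 575 in Tgfbr2ΔEC mice. The diets overlapped in part: 1 control with PLX, at 748, lay above 7 of the 10 choroids without PLX, and 1 control without PLX, at 348, lay below 8 of the 10 with PLX. The log2 difference was -0.51 ± 0.15 (adjusted p = 0.0463 by limma, exact permutation p = 0.0102), and the call was lost in 19 of 29 alternatives, in 16 of them by leaving out 1 mouse (any but mice 5, 10, 11 or 20), with adjusted p values of 0.0075 to 0.0892. Of 10 markers of neutrophils, a known source of Mmp9, 7 were tested in choroid and 1 was lower with PLX. The mean log2 level of that list lay between 3.30 and 4.41 in the choroids without PLX and between 3.11 and 4.14 in the others, and the defining markers Ly6g and Elane averaged 0.296 and 0.654 normalized counts. Their part in the difference was not tested.

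Adamts20, a versican-cleaving member known for melanoblast survival, was the only member called higher in the choroid over both genotypes. It was at 94.7, 98.3, 110, 152 and 107 normalized counts in controls without PLX and at 109, 113, 114, 131 and 113 in Tgfbr2ΔEC mice without PLX. With PLX it was at 137, 133, 159, 209 and 138 in controls and at 155, 158, 223, 160 and 175 in Tgfbr2ΔEC mice. A single choroid without PLX, at 152, reached into the range with PLX, and the log2 difference was 0.52 ± 0.11 (adjusted p = 0.0055 by limma, exact permutation p = 0.000126). The call held in all 29 alternatives, with log2 differences of 0.46 to 0.58.

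**Figure D3:**
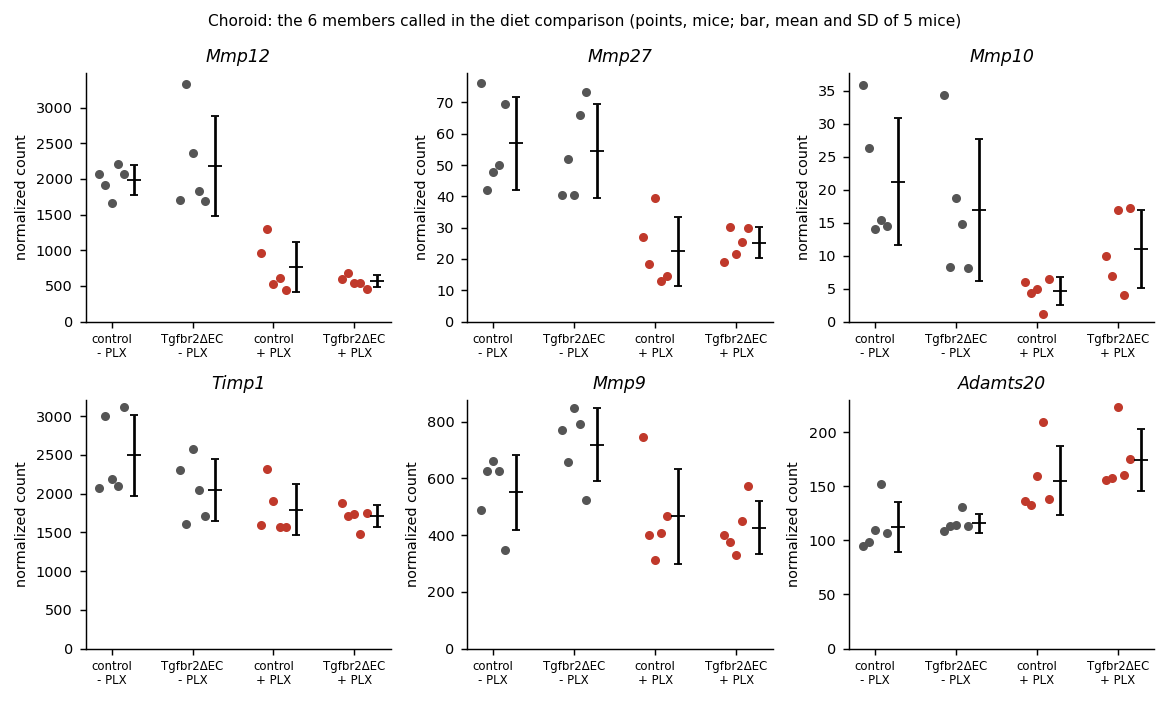
Normalized counts in the choroid of each mouse for the 6 members called in the diet comparison, with groups of 5 mice along the axis (gray, without PLX; red, with PLX) and the mean and SD beside the points. Mmp12 and Mmp27 separate completely by diet, Timp1 and Mmp9 overlap between diets, and Adamts20 is higher with PLX.

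Timp3 was close to the threshold. It was at 101793, 105145, 96771, 112234 and 87052 normalized counts in controls and at 95657, 128614, 99564, 76143 and 82498 in Tgfbr2ΔEC choroids without PLX. With PLX it was at 130569, 82952, 137152, 144391 and 137725 in controls and at 116715, 102964, 124344, 132840 and 135197 in Tgfbr2ΔEC mice. Mouse 12, at 82952, lay below the other choroids with PLX, and mouse 7, at 128614, above the others without PLX. The log2 difference was 0.33 ± 0.11 (adjusted p = 0.0694 by limma, exact permutation p = 0.00775) and was 0.41 (adjusted p = 0.00432) without mouse 12 and 0.39 (adjusted p = 0.0233) without mouse 7. Timp2 (0.15 ± 0.06, adjusted p = 0.18) and Timp4 (0.36 ± 0.26, adjusted p = 0.503) were not called.

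Within controls, Mmp12 (-1.47 ± 0.23), Mmp10 (-2.005 ± 0.473) and Mmp27 (-1.39 ± 0.30) were called, with 3.75% of all genes. In a fit of the 10 control choroids alone the call of Mmp27 was lost (adjusted p = 0.0665). Without mouse 1 or mouse 14 the call of Mmp10 in controls was lost (adjusted p = 0.0544 and 0.0556). Without mouse 12, 5 members were called in controls, Timp1 and Timp3 in addition. Within Tgfbr2ΔEC mice, Mmp12 (-1.91 ± 0.23, adjusted p = 1.15e-05), Mmp27 (-1.06 ± 0.30, adjusted p = 0.0493) and Adamts20 (0.57 ± 0.16, adjusted p = 0.04997) were called, with 4.06% of all genes. The calls of Mmp27 and Adamts20 there were at the threshold. That of Mmp27 was lost in 21 of 30 alternatives, 17 of them leaving out 1 mouse (any but mice 13, 14 or 15), with adjusted p values of 0.0276 to 0.133. That of Adamts20 was lost in 22 of 30, 16 of them leaving out 1 mouse (any but mice 4, 12, 14 or 15), with adjusted p values of 0.0344 to 0.149. Mmp9, not called there, was called in 8 of 30 alternatives, and without mouse 1, 2, 3, 6, 7, 8, 9, 16, 17, 18 or 19 Mmp12 was the 1 member called. The genotype by diet interaction, which tests whether these effects differ between genotypes, called 0 members in choroid, with 0% of all genes. Mmp10 was among those not called (1.46 ± 0.67, adjusted p = 0.724 by limma). At an unadjusted p under 0.05 were 2 members and 1552 of the 23619 genes tested.

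Mononuclear phagocyte markers moved with these members. Of 17 markers 16 were lower with PLX in choroid (median log2 difference -2.17), and the mean log2 level of the list ranged from 11.3 to 11.6 in the 10 choroids without PLX and from 8.71 to 9.75 in those with PLX. Of 10 endothelial markers 6 were higher with PLX (median 0.25), with ranges of the list's mean log2 level of 11.3 to 11.6 and 11.5 to 11.8. Mural markers (2 of 9 higher, median 0.20, list means of 11.5 to 12.1 without and 11.9 to 12.3 with PLX) and fibroblast markers (2 of 10 higher, median 0.22) also had positive medians. Melanocyte list means were 13.4 to 13.98 without and 13.5 to 14.1 with PLX. Those of RPE markers were 13.2 to 13.8 and 13.3 to 13.9, and those of Schwann cell markers 10.8 to 11.9 and 11.3 to 11.7. Of the 10 neural retina markers 0 were called over both genotypes by limma (3 at an unadjusted p under 0.05, median -1.10), but the genotypes differed in value. Within controls their median was 0.02 (0 at an unadjusted p under 0.05) and the list mean was 9.263 ± 1.302 without and 9.32 ± 2.17 with PLX (SD, n = 5), whereas within Tgfbr2ΔEC choroids the median was -2.19 (10 at an unadjusted p under 0.05, 0 called) and the list mean 11.85 ± 0.72 and 9.55 ± 0.73. The part of these cell types in the differences of Mmp12, Mmp27, Mmp10, Timp1, Mmp9 and Adamts20 was not tested. Of the 23619 genes tested in choroid, 4551 had an unadjusted p under 0.05 over both genotypes, 3249 in controls and 3634 in Tgfbr2ΔEC mice.

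Mmp12, Mmp10 and Mmp27 are neighbors in the genome. With Mmp13, Mmp3, Mmp1a, Mmp1b, Mmp20 and Mmp7 they form a cluster of 9 members in 427 kb of chromosome 9 (7272514 to 7699587, GRCm39). Of these, 5 were tested in the choroid and 3 were called, and elsewhere 3 of 35 tested members were called, where 7.13% of all genes were. Mmp12 (7344381 to 7369499) and Mmp10 (7502353 to 7510241) flank Mmp3 (7445822 to 7455975), which was not called (adjusted p = 0.693), and Mmp27 lies beyond (7571397 to 7581891). Mmp13, at the near end (7272514 to 7283331), had a log2 difference of -0.67 ± 0.23 (adjusted p = 0.0962). Neighboring genes of the cluster thus differed in whether they were called.

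**Figure D4:**
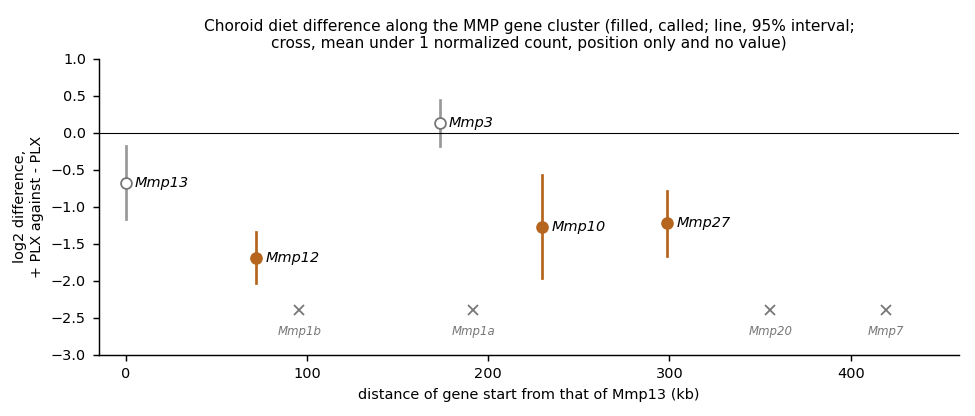
Log2 difference between choroids with and without PLX for the members of the chromosome 9 cluster, by the distance of each gene's start from that of Mmp13 in kb, with 95% intervals. Filled points (Mmp12, Mmp10 and Mmp27) are called, open points (Mmp13 and Mmp3) are not, and crosses mark members too low to test, which carry no value.

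Reads of Mmp10 and Mmp3 can be hard to tell apart, because 202 of the 1692 stretches of 31 bases in Mmp10 transcripts (11.9%) also occur in those of Mmp3, and Mmp3 was about 15032 normalized counts against 13.4 for Mmp10 in choroid. How many reads were assigned to the wrong gene was not measured, and the values of Mmp10 are uncertain for this reason. Mmp12 shared 4.91% of its stretches with any other gene. Mmp1b, on the opposite strand, overlaps the end of Mmp12 but reached at most 2.70.

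The bases upstream of the annotated start of the 3 cluster members that fell and of Mmp3, which was not called, are printed so that the divergent neighbors can be compared. Each line gives the 250 bases before the start of the canonical transcript (GENCODE M39, GRCm39, plus strand), 5′ to 3′: chr9:7347124-7347373 for Mmp12, chr9:7502103-7502352 for Mmp10, chr9:7571147-7571396 for Mmp27 and chr9:7445572-7445821 for Mmp3. Capitals mark a match on either strand to the letters of an AP-1 type site, TGANTCA, to those of a PU.1 or ETS type site, which were AGGAAG, or to those of a TATA box, for which TATAAA was searched. No matches overlapped in these lines.
Mmp12: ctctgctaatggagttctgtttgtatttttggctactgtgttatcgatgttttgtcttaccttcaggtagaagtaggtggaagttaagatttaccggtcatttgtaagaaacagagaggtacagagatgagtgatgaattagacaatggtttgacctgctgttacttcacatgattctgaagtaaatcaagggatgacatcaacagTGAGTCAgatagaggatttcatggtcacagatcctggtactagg
Mmp10: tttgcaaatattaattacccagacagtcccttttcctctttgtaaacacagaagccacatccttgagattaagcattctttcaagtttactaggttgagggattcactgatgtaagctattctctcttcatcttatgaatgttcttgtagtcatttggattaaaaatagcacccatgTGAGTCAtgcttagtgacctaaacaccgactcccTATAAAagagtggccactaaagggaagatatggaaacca
Mmp27: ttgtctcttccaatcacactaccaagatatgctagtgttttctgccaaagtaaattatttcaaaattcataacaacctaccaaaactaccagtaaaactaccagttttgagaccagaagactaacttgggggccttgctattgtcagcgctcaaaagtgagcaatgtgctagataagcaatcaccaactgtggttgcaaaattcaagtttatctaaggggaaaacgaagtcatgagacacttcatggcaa
Mmp3: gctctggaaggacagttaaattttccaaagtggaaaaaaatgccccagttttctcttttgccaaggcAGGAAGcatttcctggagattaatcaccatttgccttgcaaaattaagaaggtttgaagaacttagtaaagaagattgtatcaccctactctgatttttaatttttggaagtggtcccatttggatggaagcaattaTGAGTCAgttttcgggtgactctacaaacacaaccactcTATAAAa

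TGANTCA occurred in 1 copy upstream of Mmp12, Mmp10 and Mmp3, at 44, 73 and 46 bases before the start, and in 0 copies upstream of Mmp27. TATAAA occurred upstream of Mmp10 and Mmp3, and AGGAAG upstream of Mmp3. Over all 21757 protein-coding genes with such a window, 6.18% held TGANTCA, 28.9% AGGAAG and 11.9% TATAAA. Of the 45 members 12, 15 and 11 held them, and of the 5 members that fell in choroid 3, 1 and 1. A match describes the letters and not binding.

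In the retina, the same diet comparison called 0 of 38 tested members by limma (1.09% of all genes called; 3 members at an unadjusted p under 0.05), 0 in controls (0.736%; 1 member) and 0 in Tgfbr2ΔEC mice (0.516%; 2 members). Of the 23243 genes tested, 1459 had an unadjusted p under 0.05 over both genotypes, 1335 in controls and 919 in Tgfbr2ΔEC mice. The 17 phagocyte markers were all lower with PLX in the retina (median -5.40), with list means of 6.23 to 7.91 without and 1.64 to 3.11 with PLX. Retinal Mmp9 was at 532 ± 119 normalized counts without PLX and 526 ± 82.8 with PLX (n = 10 each), a log2 difference of 0.00 with a 95% interval of -0.26 to 0.26. Mmp25, a membrane-type MMP of leukocytes, had the lowest unadjusted p (log2 difference -1.45 ± 0.42, adjusted p = 0.178) at levels of 0 to 7.66. It became the single member called without mouse 2 or without mouse 10.

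Retinal Mmp12 did not follow the choroid. It was at 14.1, 25.4, 4.07, 3.87 and 11.4 normalized counts in controls and at 3.48, 9.29, 9.71, 19.2 and 2.63 in Tgfbr2ΔEC retinas without PLX. With PLX it was at 11.6, 7.56, 14.2, 16.2 and 11.7 in controls and at 36.9, 129, 7.69, 46.2 and 18.4 in Tgfbr2ΔEC mice. The diets overlapped, and the 3 highest values were all in Tgfbr2ΔEC retinas with PLX. The log2 difference was 1.16 ± 0.44 (adjusted p = 0.486), and 0.92 without mouse 17, which held the value of 129. The tissue by diet interaction, which compares the diet effect in choroid with that in retina, called Mmp12 (log2 difference of the effects -2.85 ± 0.48, adjusted p = 0.000213 by limma; -2.64 and 0.000277 without mouse 17). It was the only one of 40 members called, with 1.37% of all genes. Mmp28 (epilysin) had an adjusted p of 0.0602, and was called besides Mmp12 without mouse 7, 15 or 16. Mmp10 and Mmp27 had no measurable level in retina, so the interaction compares no tissues for them.

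The genotype comparison asked whether loss of endothelial Tgfbr2 changes the members. By limma, 0 of 40 tested members were called in choroid without PLX (0.00423% of all genes called; 2 members at an unadjusted p under 0.05) and 0 with PLX (0.00423%; 1 member). In retina 0 of 38 were called without PLX (0%; 1 member) and 0 with PLX (0%; 3 members), and the genotype by diet interaction in retina also called 0 (0%; 0 members). Of the 23619 genes tested in choroid, 2184 had an unadjusted p under 0.05 without PLX and 889 with PLX. Of the 23243 tested in retina, 758 did without PLX, 629 with PLX and 567 in the interaction. Medians over the members were -0.02 and 0.03 in choroid without and with PLX, and 0.01 and 0.09 in retina, on the log2 scale. With 5 mice against 5, the exact permutation test cannot give a p under 0.00794.

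Mmp24 had the lowest unadjusted p in choroid without PLX. It was at 5.06, 6.85, 6.99, 4.68 and 11.03 normalized counts in controls and at 86.4, 7.78, 9.79, 25.5 and 50.4 in Tgfbr2ΔEC choroids. With PLX it was at 5.21, 10.9, 7.10, 5.07 and 77.2 in controls and at 2.86, 5.16, 8.73, 11.8 and 10.7 in Tgfbr2ΔEC mice. Only 4 choroids exceeded 11.8, namely mice 6, 9, 10 and 15. The log2 difference was 1.75 ± 0.68 (adjusted p = 0.37 by limma, exact permutation p = 0.0317), and 0.56 (adjusted p = 1.0) with the neural retina score as covariate. Mice 9, 15, 6 and 10 also had the 4 highest mean log2 levels of neural retina markers among the choroids (12.8, 12.7, 12.5 and 11.5, against 6.99 to 11.3 in the other 16), and all 10 of these markers had an unadjusted p under 0.05 in this genotype comparison (median log2 difference 2.63). In that comparison 2184 of the 23619 genes tested had an unadjusted p under 0.05. Mmp24 is itself a retinal transcript (528 to 1041 in every retina), and the part of retinal RNA in the choroid values was not tested.

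**Figure D5:**
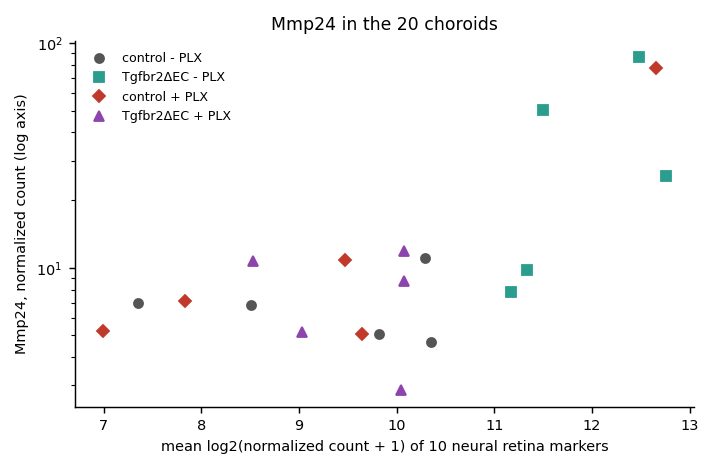
Mmp24 in the 20 choroids, as normalized counts on a log axis, against the mean log2 level of 10 neural retina markers, with each of the 4 groups of 5 mice by its own symbol. The 4 choroids above 11.8 (mice 6, 9, 10 and 15) are those with the highest marker levels.

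In choroid without PLX, Adamts8 was lower in Tgfbr2ΔEC mice by a log2 difference of -0.88 ± 0.38 (adjusted p = 0.465 by limma, exact permutation p = 0.0714), Adamts4, an aggrecanase, by -0.34 ± 0.17 (adjusted p = 0.602), and Mmp9 differed by 0.40 ± 0.22 (adjusted p = 0.63). In choroid with PLX, Mmp10 differed by 1.06 ± 0.47, Mmp3 by 0.29 ± 0.21, Mmp12 by -0.34 ± 0.23 and Adamts15 by -0.23 ± 0.20, each with an adjusted p of 1.0. In retina without PLX, Adamts1 differed by -0.35 ± 0.17, Mmp11 by -0.96 ± 0.58, Timp3 by 0.24 ± 0.14 and Mmp16 by 0.61 ± 0.39, each with an adjusted p of 0.985. In retina with PLX, Mmp2 differed by -0.74 ± 0.34, Mmp11 by -1.13 ± 0.58, Mmp12 by 1.35 ± 0.62 and Timp3 by 0.30 ± 0.14, each with an adjusted p of 1.0. None of these passed the adjustment, which does not show that the genotypes were alike.

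Genes that act with the members were taken from fixed lists of activators and other inhibitors, ADAMTS-like proteins, ADAM sheddases and matrix substrates. In choroid over both genotypes, 2 of 10 tested activators and inhibitors were higher and 1 lower with PLX, 2 of 8 ADAM sheddases lower, 1 of 10 substrates higher and 0 of 7 ADAMTS-like genes called by limma (2 at an unadjusted p under 0.05). Of all 23619 genes 2.07% were called higher and 5.06% lower, and 4551 had an unadjusted p under 0.05. With lists this short the counts are given as a description. Plau, the urokinase that starts plasmin-driven activation of MMPs, fell from 1379 ± 193 normalized counts to 521 ± 92.8 (log2 difference -1.41 ± 0.10, adjusted p = 3.45e-09, n = 10 each). Adam8, a leukocyte sheddase, fell from 1323 ± 259 to 463 ± 162 (-1.56 ± 0.15, adjusted p = 1.75e-07), and Adam17, which releases TNF, from 2362 ± 180 to 1857 ± 200 (-0.35 ± 0.06, adjusted p = 0.000226). Reck, a membrane-anchored inhibitor of MMPs, rose from 2789 ± 364 to 3827 ± 675 (0.45 ± 0.10, adjusted p = 0.00651).

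Of the remaining list genes called in choroid, Serpinf1, the antiangiogenic factor PEDF, rose by 0.34 ± 0.10 on the log2 scale (adjusted p = 0.048) and Comp, a substrate of Adamts7 and Adamts12, by 0.65 ± 0.17 (adjusted p = 0.0199). Within Tgfbr2ΔEC mice the link protein gene Hapln4, a retinal transcript, was lower with PLX (44.2 ± 36.6 against 4.19 ± 3.35, n = 5 each; log2 difference -2.95 ± 0.60, adjusted p = 0.00445), where the 10 neural retina markers had a median log2 difference of -2.19. In retina Plau was the single gene of the lists called over both genotypes, from 29.9 ± 15.2 to 4.89 ± 2.40 (log2 difference -2.31 ± 0.31, adjusted p = 7.64e-05). Plau thus fell in both tissues, and Adam8 differed between them in the tissue by diet interaction (-1.51 ± 0.27, adjusted p = 0.000515).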

How the data were processed

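PolyA RNA of the retina and choroid of 20 mice was sequenced. The authors quantified reads with Salmon 1.10.1 against GRCm39 (GENCODE M29), checked quality with FastQC 0.11.5 and normalized the estimated counts with DESeq2 1.36.0 (versions as in the submitters' processing notes). The deposited signal is this normalized count per gene, 1 table for both tissues, and is not a whole number of reads. The members and lists were chosen with earlier results of these data known. One gene of the family is not reported here. Of 54307 genes, 53700 matched GENCODE M39 by identifier and 607 did not.

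Values were tested as log2(normalized count + 1) with limma 3.58.1 (trend) in R 4.3.3, for genes that averaged 1 or more over the libraries of a fit, with Benjamini-Hochberg adjustment over all of them and a threshold of 0.05. The fold change of genes with few reads is understated on this scale. The 4 groups of a tissue shared 1 fit, and tissues were compared in 1 fit of 40 libraries. Single members were also tested two-sided by exact permutation (252 relabellings, or 63504 within genotypes), without correction for the number of members. Each contrast has 5 mice per group, and replicates are separate animals. The floor is 3 reads, about 2.24 to 3.56 normalized counts per library, and covers counting error only. Sex and the neuronal share, covariates of the study, were not in the labels. The named members were the TIMPs, those called in a diet, genotype or interaction contrast, the 10 of largest difference in each direction between tissues, the 8 of highest level per kb in each tissue, and the 2 of lowest p in each direction of a genotype contrast. Retina and choroid libraries were paired by the mouse number in their names. The correlation of deviations from the group means between paired libraries ranged from -0.158 to 0.289 over the 20 mice (median 0.126). Of the 20 choroids, 10 correlated best with their own retina, and mouse was a block in an alternative fit. The fits were tested on simulated data with known changes. Alternatives were another pseudocount (0.5 or 5), filter (none or a mean of 10), scaling, robust variance, a sex or neural retina score as covariate, the 10 libraries compared alone, and leaving out each mouse. Figures and member statistics used Python 3.11.15 (pandas 2.3.3, numpy 2.4.6).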

Additional observations from a re-analysis of the deposited data

Results flagged for a closer look

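One difference between tissues passed its own test. The diet effect on Mmp12 differed between choroid and retina by -2.85 on the log2 scale (choroid minus retina, tissue by diet interaction of limma). The effect was -1.69 in choroid and 1.16 in retina, where it was not called (adjusted p = 0.486 by limma). Within the retina it was 0.31 in controls and 2.02 in Tgfbr2ΔEC mice, neither of them called.

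Within groups of 5 mice, 1 mouse stood apart from the other 4 by Dixon's ratio (gap to the nearest mouse over the range, above 0.71) in 17 of 222 groups of the named members with a highest value above 5. For normally distributed values chance flags about 1 in 20 groups, here about 11.1. The ratio was taken on normalized counts, some of them near the floor, for which that rate may not hold. In the choroid these were mouse 4 for Adamts20 (152 normalized counts, ratio 0.74) among controls without PLX, mouse 9 for Adamts20 (131, ratio 0.762) among Tgfbr2ΔEC mice without PLX, mouse 12 for Mmp16 (209, lower than the others, ratio 0.741) and Timp3 (82950, lower, ratio 0.775) among controls with PLX, mouse 15 for Mmp24 (77.2, ratio 0.92) in the same group, and mouse 17 for Adamts18 (50.5, ratio 0.812) and Mmp17 (379, ratio 0.837) among Tgfbr2ΔEC mice with PLX.

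In the retina they were mouse 4 for Adamts2 (67.7, ratio 0.755) and mouse 1 for Mmp3 (8.49, ratio 0.954) among controls without PLX, and mouse 10 for Adamts12 (37.7, ratio 0.737) and Timp4 (26.3, ratio 0.744) and mouse 7 for Adamts14 (6.77, ratio 0.714) among Tgfbr2ΔEC mice without PLX. With PLX they were mouse 12 for Mmp9 (359, lower, ratio 0.725) and Mmp19 (64.8, ratio 0.779) among controls, and mouse 17 for Adamts2 (258, ratio 0.94) and Timp2 (2555, ratio 0.796) and mouse 18 for Mmp3 (5.57, ratio 1.0) among Tgfbr2ΔEC mice.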

How the results depend on the processing

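Under alternatives that kept all mice, 133 recalculated counts of called members stayed within 1.5 times the reported count and 4 did not. Those 4 were as follows. In Tgfbr2ΔEC choroids the diet count went from 3 to 1 without the filter on low values and with the sex score as covariate, and the tissue by diet count from 1 to 3 with a pseudocount of 5 and to 2 with a minimum mean of 10; the filters change which genes are tested, and for the others the cause was not tested. Leaving out 1 mouse gave 2 to 5 members called for diet in control choroids, 1 to 4 in Tgfbr2ΔEC choroids, 4 to 7 over both genotypes, 0 to 1 for diet in retina over both genotypes, 1 to 3 for tissue by diet (counts of 3 include Mmp10, which was at or under 3 reads in every retina), 36 between tissues in controls without PLX and 37 to 38 over the 4 groups. No called result turned its direction under these alternatives. With the replicate block (mouse), the counts were 36 and 38 between tissues, Adamts13 being called in addition, and 1 for tissue by diet, so pairing lost no call. Scaling to the library sum moved the median of all genes to -0.12 between tissues over the 4 groups, against -0.01 as deposited. Depth limits Adamts13 in both tissues, Mmp10, Mmp27 and, in retina, Mmp3, Mmp12, Mmp13, Mmp25 and Adamts14.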
